A study of Mus musculus with 9 samples.

Results

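The 10 genes described here encode the machinery of major histocompatibility complex (MHC) class I antigen presentation: the heavy chains H2-K1 and H2-D1, their light chain B2m, the peptide transporter subunits Tap1 and Tap2, the loading factor Tapbp, the inducible proteasome subunits Psmb8, Psmb9 and Psmb10, and the transcriptional regulator Nlrc5. They were chosen by name for their known role, with no threshold on their values but with earlier results of these data known, from 34198 gene symbols, and all 10 passed a filter of 1 CPM or more in 3 libraries or more (CPM, read counts scaled to library depth), which left 12925 genes for testing. RNA was sequenced from microdissected atrioventricular (AV) nodes, the relay of the heart's conduction system, of C57BL/6J mice, with 3 libraries from macrophage-depleted Cd11bDTR mice, 3 from Cx3cr1 Cx43-/- mice and 3 from control mice. Cd11bDTR mice carry the diphtheria toxin receptor under the Cd11b promoter, which is active in monocytes and neutrophils as well as macrophages. Cx3cr1 Cx43-/- mice lack connexin 43 (Gja1) in cells that express Cx3cr1, a receptor of mononuclear phagocytes. The libraries are numbered 7 to 9, 4 to 6 and 1 to 3 in that order of groups. The series calls them biological replicates; the age of the mice, the toxin dose and timing, the type of control mouse and any pooling of nodes are not given in the sources used here.

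MHC class I molecules show peptides from inside the cell to CD8 T cells. The proteasome cuts proteins into peptides, TAP carries the peptides into the endoplasmic reticulum, tapasin (Tapbp) bridges TAP to the empty heavy chain, and the loaded heavy chain with beta-2 microglobulin travels to the surface. Nearly all nucleated cells make class I, at low levels in resting heart muscle cells and at higher levels in endothelial and immune cells, and interferon-gamma raises the whole set, in part through IRF1 and NLRC5.

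Of the 10 genes, 7 lie on chromosome 17 in or beside the MHC, Psmb10 and Nlrc5 lie on chromosome 8, and B2m lies on chromosome 2. Psmb9, Tap1, Psmb8 and Tap2 stand next to each other in that order, between the class II genes H2-DMb1 and H2-Ob. The promoters of 5 members are shown because their genes either share a window (Tap1 and Psmb9), lie next to Tap1 with unlike values (Psmb8) or form the same surface molecule (H2-K1, H2-D1 and B2m). Each runs 5′ to 3′ from 250 bases before to 50 bases after the RefSeq start on build GRCm38.p6, and capitals mark matches to the 4 motifs named after them. The windows are chr17:34000298-34000597 on the minus strand for H2-K1, chr17:35262844-35263143 on the plus strand for H2-D1, chr2:122147437-122147736 on the plus strand for B2m, chr17:34187306-34187605 on the plus strand for Tap1 and chr17:34197945-34198244 on the plus strand for Psmb8.
H2-K1: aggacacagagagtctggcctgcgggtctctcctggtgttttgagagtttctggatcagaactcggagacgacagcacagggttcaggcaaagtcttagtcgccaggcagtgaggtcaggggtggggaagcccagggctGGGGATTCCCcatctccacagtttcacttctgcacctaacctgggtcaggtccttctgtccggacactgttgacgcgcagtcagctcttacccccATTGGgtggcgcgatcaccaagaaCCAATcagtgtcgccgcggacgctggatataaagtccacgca
H2-D1: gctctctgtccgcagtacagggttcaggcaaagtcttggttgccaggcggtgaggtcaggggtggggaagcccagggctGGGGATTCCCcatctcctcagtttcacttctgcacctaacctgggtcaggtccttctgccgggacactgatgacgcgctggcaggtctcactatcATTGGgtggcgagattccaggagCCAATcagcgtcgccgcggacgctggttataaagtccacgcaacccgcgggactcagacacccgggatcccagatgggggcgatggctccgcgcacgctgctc
B2m: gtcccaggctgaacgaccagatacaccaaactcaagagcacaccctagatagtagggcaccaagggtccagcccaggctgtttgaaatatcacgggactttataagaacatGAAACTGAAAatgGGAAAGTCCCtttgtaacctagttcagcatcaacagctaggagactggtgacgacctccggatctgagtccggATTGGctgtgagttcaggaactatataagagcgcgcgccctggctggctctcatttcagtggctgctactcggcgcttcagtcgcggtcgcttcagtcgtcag
Tap1: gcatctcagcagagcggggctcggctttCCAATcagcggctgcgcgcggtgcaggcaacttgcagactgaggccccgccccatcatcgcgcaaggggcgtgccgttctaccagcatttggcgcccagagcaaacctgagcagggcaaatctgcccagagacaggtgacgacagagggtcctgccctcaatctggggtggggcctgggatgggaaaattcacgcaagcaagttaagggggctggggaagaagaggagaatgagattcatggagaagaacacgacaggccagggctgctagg
Psmb8: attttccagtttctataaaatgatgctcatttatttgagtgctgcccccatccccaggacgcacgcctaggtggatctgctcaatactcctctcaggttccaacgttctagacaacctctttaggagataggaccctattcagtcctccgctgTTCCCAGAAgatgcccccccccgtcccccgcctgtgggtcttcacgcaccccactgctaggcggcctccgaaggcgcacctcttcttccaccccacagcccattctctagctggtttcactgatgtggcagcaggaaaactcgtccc
The start of Psmb9 lies 226 bases from that of Tap1 on the opposite strand, so their windows share 275 bases. The H2-K1 and H2-D1 windows match at 214 of 239 aligned bases. The motifs were GGG, any 2 bases, TT, any 1 base and CC for NF-kB, GAAA, any 2 bases and GAAA for a pair of interferon regulatory factor sites, TTCNNNGAA for STAT factors, and CCAAT, searched on both strands in the 8 members with a RefSeq window, which excluded Tap2 and Nlrc5. The NF-kB motif stood in H2-K1, H2-D1 and B2m, against 4.79% of 32851 mouse promoter windows. The interferon regulatory factor motif stood only in B2m of the 8, at -139 from the start, against 3.44% of windows, and TTCNNNGAA only in Psmb8, at -97, against 8.30%. CCAAT was in 6 of the 8 members and in 37.4% of windows. The matches describe letters in these windows and are not evidence of binding. Each motif was a fixed pattern, so a window without a match may still hold a variant site.

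Markers of the dissected tissue had a lower sum in the depleted nodes. On the deposited scale 8 of 10 tested AV node and conduction genes were called lower than in control nodes and 0 higher. Of all tested genes 33% were called lower and 3.23% higher. The summed level of 11 AV node and conduction genes was 129 to 215 CPM in macrophage-depleted nodes, 403 to 501 CPM in Cx3cr1 Cx43-/- nodes and 440.0 to 481 CPM in control nodes. Isl1, which did not pass the filter, was listed at 0 in depleted libraries 8 and 9, Cx3cr1 Cx43-/- library 6 and control library 2. Gja1 had 89.9, 56.8 and 68.3 CPM in depleted libraries, 179, 229 and 249.99 CPM in Cx3cr1 Cx43-/- libraries and 246, 163 and 211 CPM in control libraries. Heart muscle cells also express Gja1, so its level in whole nodes does not check a deletion limited to macrophages. The listed genes took 44.0%, 37.7% and 28.3% of the CPM denominator in depleted libraries 7, 8 and 9, against 46.8% to 47.9% in Cx3cr1 Cx43-/- and 42.8% to 48.7% in control libraries. The spacing of the lowest values puts 1 CPM at 52.1 to 65.1 reads per library. Between depleted and control nodes, the median log2 change of the tested genes was -0.49 on the deposited scale. It was -0.18 after every library was rescaled to a common total and -0.04 after median-of-ratios scaling. Calls of members and pathway lists between these nodes are therefore given as deposited, followed by those on the other 2 scales. Marker calls are given as deposited only. In these bulk samples, fewer cells of a type and less RNA per cell cannot be told apart.

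In macrophage-depleted nodes, no change of the class I heavy chains was detectable beyond the spread of the libraries, while the immunoproteasome subunit Psmb9 and the regulator Nlrc5 fell on the deposited scale. H2-K1, one of the classical heavy chains, had 249.9, 151 and 84.8 CPM in depleted libraries 7, 8 and 9, against 176, 124 and 157 CPM in control libraries 1, 2 and 3. The depleted libraries lay on both sides of every control library. The log2 change of H2-K1 was -0.03 ± 0.28 (SE, n = 3 libraries a group), with a 95% interval of -0.61 to 0.54 and a limma adjusted p of 0.933. H2-D1, the other classical heavy chain of this strain, behaved like H2-K1, with 217.5, 168 and 88.2 CPM in depleted libraries and 195, 126 and 172 CPM in control libraries. Its log2 change was -0.13 ± 0.27 (limma adjusted p = 0.719). After rescaling to a common total both signs turned, to 0.30 for H2-K1 and 0.20 for H2-D1, and neither change passed the test.

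B2m, the light chain that every class I heavy chain needs, was the member with the most positive change. It had 339, 256 and 151 CPM in depleted libraries, against 211, 156 and 207 CPM in control libraries, and the groups overlapped because depleted library 9 lay below all 3 controls. The log2 change was 0.31 ± 0.25 as deposited (limma adjusted p = 0.335). Once the libraries were rescaled to a common total, B2m had 333, 293 and 230.2 in depleted libraries, against 187, 157 and 197 in control libraries, with no overlap, as 12.4% of all tested genes had in that direction. On that scale B2m was higher by 0.65 ± 0.16 (limma adjusted p = 0.00782), and after median-of-ratios scaling by 0.81 ± 0.16 (limma adjusted p = 0.00209). The B2m call on these 2 scales held with each of the 6 libraries left out in turn, at adjusted p of 0.00271 to 0.0373 on the common total and 0.000672 to 0.0125 after median-of-ratios scaling. Without depleted library 9 it also passed the test as deposited, at 0.64 (limma adjusted p = 0.0280).

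The peptide transporter and its loading factor showed lower means in depleted nodes that did not pass the test. Tap1 had 8.37, 8.63 and 4.43 CPM in depleted libraries, against 14.1, 8.74 and 8.29 CPM in control libraries, a log2 change of -0.52 ± 0.29 (limma adjusted p = 0.158). Tap2, the other subunit of the transporter, had 24.6, 25.2 and 14.9 CPM in depleted libraries, against 28.5, 26.1 and 26.5 CPM in control libraries. Every depleted value of Tap2 was below every control value, but the change of -0.36 ± 0.23 missed the threshold (limma adjusted p = 0.212), and the groups overlapped after rescaling. Tapbp averaged 71.8 ± 19.8 CPM in depleted and 82.0 ± 5.48 CPM in control nodes (SD, n = 3 each), a log2 change of -0.23 ± 0.21 (limma adjusted p = 0.407). Tapbp turned to 0.11 on the common total.

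The 3 inducible catalytic subunits, which replace Psmb5, Psmb6 and Psmb7 when the immunoproteasome is assembled, did not move together. Psmb9, the inducible counterpart of Psmb6, had 3.97, 6.37 and 4.94 CPM in depleted libraries, against 10.9, 7.74 and 8.04 CPM in control libraries. All depleted values were below all control values, and Psmb9 fell by 0.76 ± 0.28 on the log2 scale (95% interval -1.33 to -0.19, limma adjusted p = 0.0358). The Psmb9 call ended without control library 1 (adjusted p = 0.168), control library 3 (0.0717) or depleted library 7 (0.0691), and the log2 change was smaller, -0.44 and -0.30, on the 2 other scales, where it did not pass (adjusted p = 0.211 and 0.408). With the common total its groups still did not overlap, as for 26% of all tested genes in that direction. Psmb8, the inducible counterpart of Psmb5, pointed the other way, with 14.4, 19.3 and 17.7 CPM in depleted libraries and 14.6, 12.7 and 14.9 CPM in control libraries. Its log2 change was 0.27 ± 0.23 as deposited (limma adjusted p = 0.360), 0.60 on the common total (adjusted p = 0.0427) and 0.75 after median-of-ratios scaling (adjusted p = 0.0147). With the common total that call held in 1 of 6 runs with a library left out, the one without depleted library 7, and in the other 5 it ended (adjusted p up to 0.145). After median-of-ratios scaling it held in 4 of 6, and ended without depleted library 9 (adjusted p = 0.0502) or control library 1 (0.0519). Psmb10, the inducible counterpart of Psmb7, averaged 30.5 ± 5.55 CPM in depleted and 35.9 ± 5.30 CPM in control nodes (SD, n = 3 each). The groups overlapped, with a log2 change of -0.24 ± 0.22 (limma adjusted p = 0.408) that turned to 0.09 on the common total.

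Nlrc5, the transactivator that drives the promoters of class I genes, had the most negative change of the set. It had 1.78, 1.06 and 1.97 CPM in depleted libraries, against 4.19, 4.56 and 2.13 CPM in control libraries, so the lowest control value stood close to the highest depleted one. Nlrc5 fell by 0.94 ± 0.36 on the log2 scale (95% interval -1.68 to -0.21, limma adjusted p = 0.0424). The call ended without control library 1 (adjusted p = 0.151), control library 2 (0.117) or depleted library 8 (0.119). On the common total the change was -0.67 (adjusted p = 0.181) and after median-of-ratios scaling -0.54 (0.285), neither past the threshold.

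**Figure D1:**
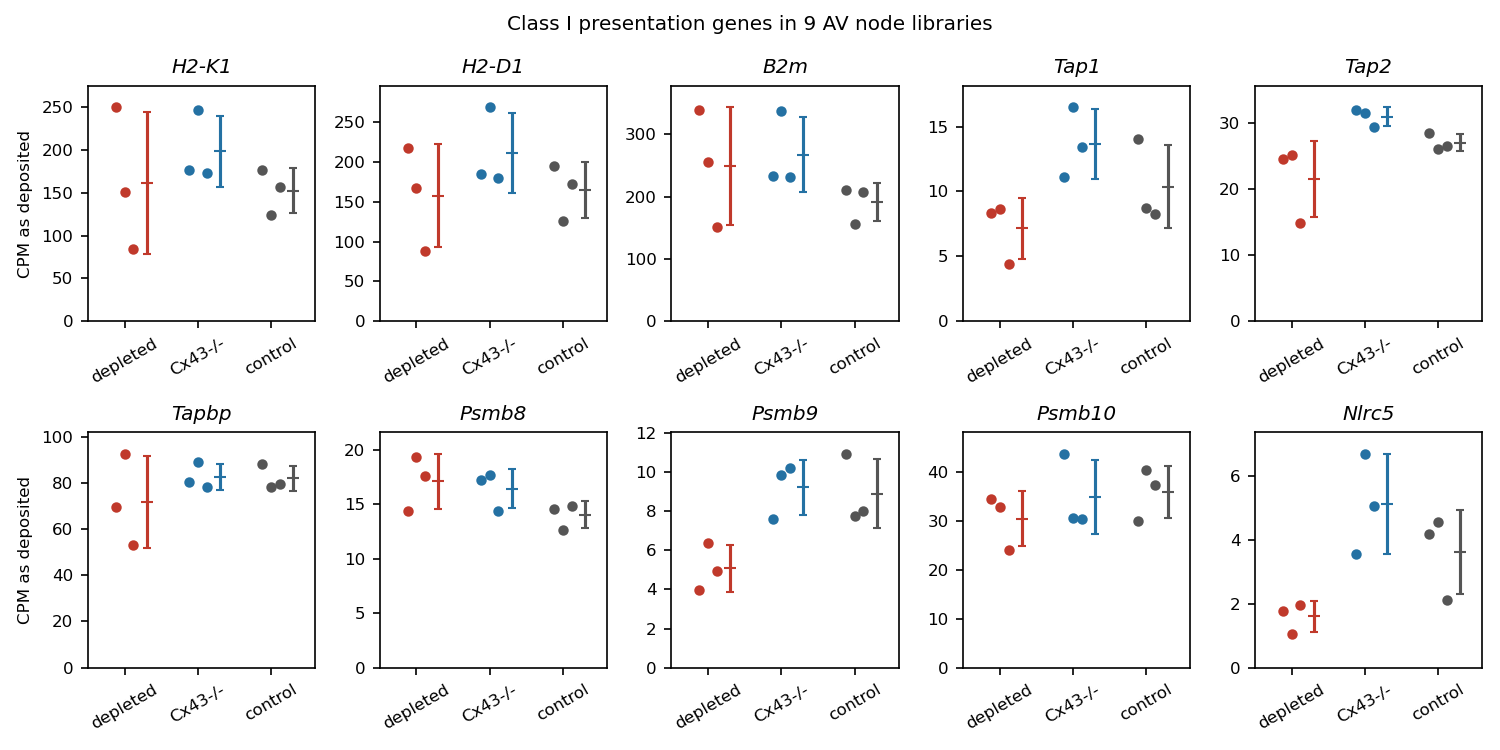
Deposited CPM of the 10 class I presentation genes (vertical axes, linear from 0) in macrophage-depleted, Cx3cr1 Cx43-/- and control AV nodes; points are libraries, and the bar beside them is the mean with its SD (n = 3). Tap2, Psmb9 and Nlrc5 had every depleted value below every control value, while H2-K1, H2-D1 and B2m spread widely among depleted libraries.

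As a set, then, 0 of 10 members were called higher in depleted than in control nodes by limma, where 3.23% of all tested genes were, and 2 were called lower, where 33% of all tested genes were. At an unadjusted p under 0.05 the members called were again Psmb9 and Nlrc5, where 6055 of 12925 tested genes were called. The 2 lower calls are no more than the background share and are no result about the set. The median log2 change was -0.23 over the members and -0.49 over all tested genes, and 7 of 10 members lay above the all-gene median. Non-overlapping groups gave a like picture, with 0 members higher (3.61% of all tested genes) and 3 lower, Tap2, Psmb9 and Nlrc5 (38% of all tested genes). On the common total the calls were B2m and Psmb8 higher (8.79% of all tested genes) and none lower (19.6% of all tested genes). After median-of-ratios scaling they were again B2m and Psmb8 higher (13% of all tested genes), with none lower (13%).

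**Figure D2:**
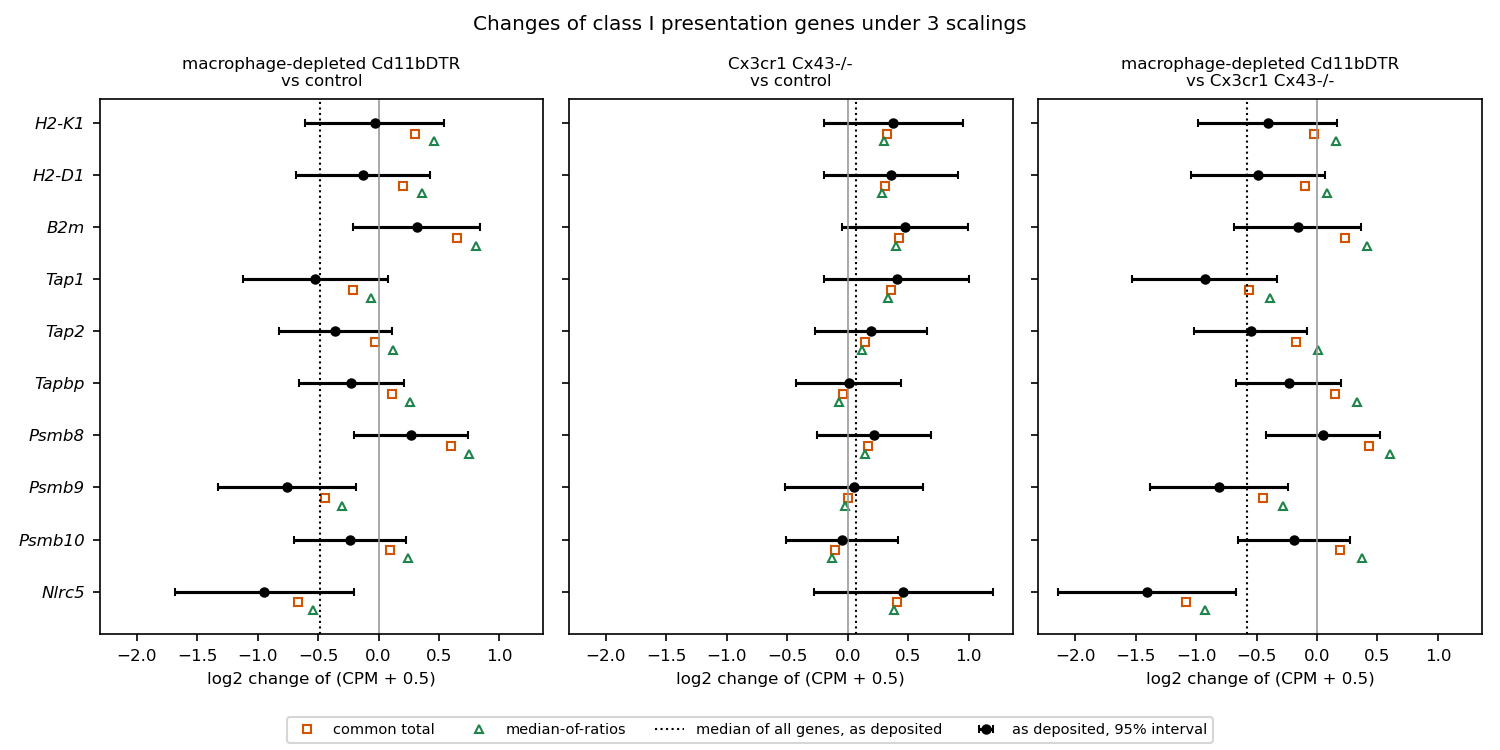
Log2 change of CPM + 0.5 (horizontal axes) of each member in the 3 comparisons; filled circles with 95% intervals are deposited values, squares the common total, triangles median-of-ratios scaling, and the dotted line is the median of all tested genes as deposited. Between depleted and control nodes the rescaled values stand to the right of the deposited ones, B2m and Psmb8 farthest at 0.65 and 0.60 on the common total.

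In Cx3cr1 Cx43-/- nodes no member passed the test against control, and 9 of 10 had a positive log2 change as deposited, as did 65.4% of all tested genes (median 0.07). Of these, Tapbp turned negative on the common total, and Tapbp and Psmb9 after median-of-ratios scaling. The control libraries are those of the comparison above. B2m came nearest, with 234, 337 and 232 CPM in Cx3cr1 Cx43-/- libraries and 211, 156 and 207 CPM in control libraries. All 3 Cx3cr1 Cx43-/- values were above all 3 control values, and the log2 change was 0.47 ± 0.25, with a 95% interval of -0.05 to 0.998 (limma unadjusted p = 0.0749, adjusted p = 1). H2-K1 had 176, 247 and 173 CPM in Cx3cr1 Cx43-/- libraries, against 176, 124 and 157 CPM in control libraries, a log2 change of 0.38 ± 0.28. H2-D1 had 185, 269 and 179 CPM in Cx3cr1 Cx43-/- libraries, against 195, 126 and 172 CPM in control libraries, a log2 change of 0.36 ± 0.27. For both heavy chains library 5 was the highest Cx3cr1 Cx43-/- library and library 2 the lowest control. Tap2 had 32.0, 31.5 and 29.3 CPM in Cx3cr1 Cx43-/- libraries, against 28.5, 26.1 and 26.5 CPM in control libraries, without overlap, and its change was 0.19 ± 0.23. B2m and Tap2 were thus the 2 members with non-overlapping higher values as deposited, where 5.94% of all tested genes had them. Nlrc5 had 3.56, 6.69 and 5.07 CPM in Cx3cr1 Cx43-/- libraries, against 4.19, 4.56 and 2.13 CPM in control libraries, a change of 0.46 ± 0.36 with overlap. Tap1 changed by 0.41 ± 0.29 and Psmb8 by 0.22 ± 0.23, and Psmb9 changed by 0.05, Psmb10 by -0.05 and Tapbp by 0.01. Limma called 0 members higher or lower, at an adjusted p of 1 for each; of all tested genes it called 0% higher and 0.00774% lower, which is 1 gene, and 191 genes had an unadjusted p under 0.05. The intervals allow a change of up to 0.95 for H2-K1, so these values do not show that the groups are alike.

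Set against Cx3cr1 Cx43-/- nodes, depleted nodes had lower Nlrc5, Tap1 and Psmb9 on the deposited scale. Nlrc5 averaged 1.60 ± 0.48 CPM in depleted and 5.11 ± 1.57 CPM in Cx3cr1 Cx43-/- nodes (SD, n = 3 each), and fell by 1.40 ± 0.36 on the log2 scale (limma adjusted p = 0.00386). It passed the test with any 1 of the 6 libraries left out and on the common total (-1.08, adjusted p = 0.0363), where 20.9% of all tested genes were called lower and 8.47% higher, but not after median-of-ratios scaling (-0.93, adjusted p = 0.0703). Tap1 averaged 7.14 ± 2.35 CPM in depleted and 13.7 ± 2.69 CPM in Cx3cr1 Cx43-/- nodes, and fell by 0.93 ± 0.29 (limma adjusted p = 0.0139). Psmb9 averaged 5.09 ± 1.21 CPM in depleted and 9.23 ± 1.42 CPM in Cx3cr1 Cx43-/- nodes, and fell by 0.81 ± 0.28 (limma adjusted p = 0.0221). The Tap1 call ended without Cx3cr1 Cx43-/- library 5 (adjusted p = 0.0855) or depleted library 9 (0.0665), and the Psmb9 call without Cx3cr1 Cx43-/- library 5 (0.0949) or 6 (0.102). Both calls also ended on the common total, at adjusted p of 0.0731 for Tap1 and 0.202 for Psmb9, and after median-of-ratios scaling. Without depleted library 7 the lower calls came to 6 of 10, with H2-K1 (-0.79, adjusted p = 0.0131), H2-D1 (-0.77, 0.0231) and Tap2 (-0.66, 0.0185) added, in a run where 52.3% of all tested genes were called lower, and Tap2 also joined them without depleted library 8 (-0.68, 0.0369). The 3 lower calls with all libraries stand beside 40.7% of all tested genes called lower, and the 0 higher calls beside 2.69%. Non-overlap likewise gave 4 members lower, Tap1, Tap2, Psmb9 and Nlrc5, beside 50.6% of all tested genes, and 0 higher, beside 3.39%. Psmb8 was the one member with a positive deposited change (0.05 ± 0.23, adjusted p = 0.866), and after median-of-ratios scaling it was called higher (0.61, adjusted p = 0.0402), where 13.1% of all tested genes were; 0 members were called lower there, beside 12.9%.

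On the deposited scale H2-D1, Tap1, Tap2, Tapbp, Psmb9, Psmb10 and Nlrc5 each had their lowest group mean in depleted nodes, and H2-K1, B2m and Psmb8 had theirs in control nodes. For B2m the depleted mean of 249 ± 94.5 CPM and the Cx3cr1 Cx43-/- mean of 268 ± 60.2 CPM are neighbours that do not differ beyond their spread, above the control mean of 191 ± 30.7 CPM (SD, n = 3 each). For Psmb8 the depleted mean of 17.1 ± 2.53 CPM and the Cx3cr1 Cx43-/- mean of 16.5 ± 1.79 CPM likewise do not differ beyond their spread, above 14.1 ± 1.22 CPM in control nodes. For Psmb9 the Cx3cr1 Cx43-/- mean of 9.23 ± 1.42 CPM and the control mean of 8.91 ± 1.77 CPM are the neighbours within spread, with the depleted mean below both.

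Ratios of 2 genes within a library do not depend on how the libraries are scaled, so they show unequal changes between partners, apart from the small pseudocount. They are ratios of CPM, not corrected for gene length, and are compared only between groups. A lower ratio does not by itself show a fall of the member. As deposited, the partners Psmb5, Psmb6, Psmb7 and B2m changed by 0.04, 0.16, 0.17 and 0.31 between depleted and control nodes. Tap2 changed by -0.36, and the median over all tested genes was -0.49. Psmb10, at -0.24, H2-K1 and H2-D1 also lay above that median, and Psmb9 below it. How often other gene pairs separate in this way was not computed. The inducible Psmb9 was lower relative to its constitutive counterpart Psmb6 in depleted nodes. The log2 ratio of Psmb9 to Psmb6 was -4.47, -4.03 and -3.63 in depleted libraries, against -2.69, -3.38 and -3.31 in control libraries. The groups did not overlap, and the means differed by -0.92. Psmb10 to Psmb7 was -1.71, -1.82 and -1.52 in depleted libraries, against -1.30, -1.28 and -1.23 in control libraries, again without overlap, a difference of -0.41. Psmb8 to Psmb5 did not follow, with -0.75, -0.03 and 0.17 in depleted libraries, against -0.28, -0.44 and -0.57 in control libraries. These groups overlapped widely around a difference of 0.23 (exact permutation p = 0.5). Psmb9 and Psmb10 also had lower ratios in depleted than in Cx3cr1 Cx43-/- nodes, by -1.06 and -0.42, without overlap.

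The heavy chains were lower relative to B2m in depleted nodes. H2-D1 to B2m had a log2 ratio of -0.64, -0.61 and -0.77 in depleted libraries, -0.34, -0.33 and -0.37 in Cx3cr1 Cx43-/- libraries and -0.12, -0.31 and -0.26 in control libraries. None of the 3 groups overlapped another, and the depleted and control means differed by -0.45. H2-K1 to B2m was -0.44, -0.76 and -0.83 in depleted libraries, -0.41, -0.45 and -0.42 in Cx3cr1 Cx43-/- libraries and -0.26, -0.33 and -0.40 in control libraries. Its depleted libraries did not overlap the controls, at a difference of -0.35, but overlapped the Cx3cr1 Cx43-/- libraries. Tap1 to Tap2 differed by -0.16 between depleted and control nodes, with overlap (exact permutation p = 0.8), and by -0.38 between depleted and Cx3cr1 Cx43-/- nodes, without overlap. The 6 ratios were tested in 3 comparisons with a two-sided exact permutation test, whose smallest p with 3 libraries a group is 0.1. Each non-overlapping difference reached that p of 0.1, and 0.18 after Benjamini-Hochberg adjustment over the 18 tests, so no ratio could pass 0.05 in this design.

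Psmb9 and Psmb8, which lie on either side of Tap1, parted in depleted nodes, a pair chosen after the values were seen and so given without a test. The log2 ratio of Psmb9 to Psmb8 was -1.73, -1.53 and -1.74 in depleted libraries, -1.13, -0.81 and -0.48 in Cx3cr1 Cx43-/- libraries and -0.40, -0.68 and -0.85 in control libraries. All 3 depleted values lay below the other 6, and the depleted mean differed from control by -1.02.

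**Figure D3:**
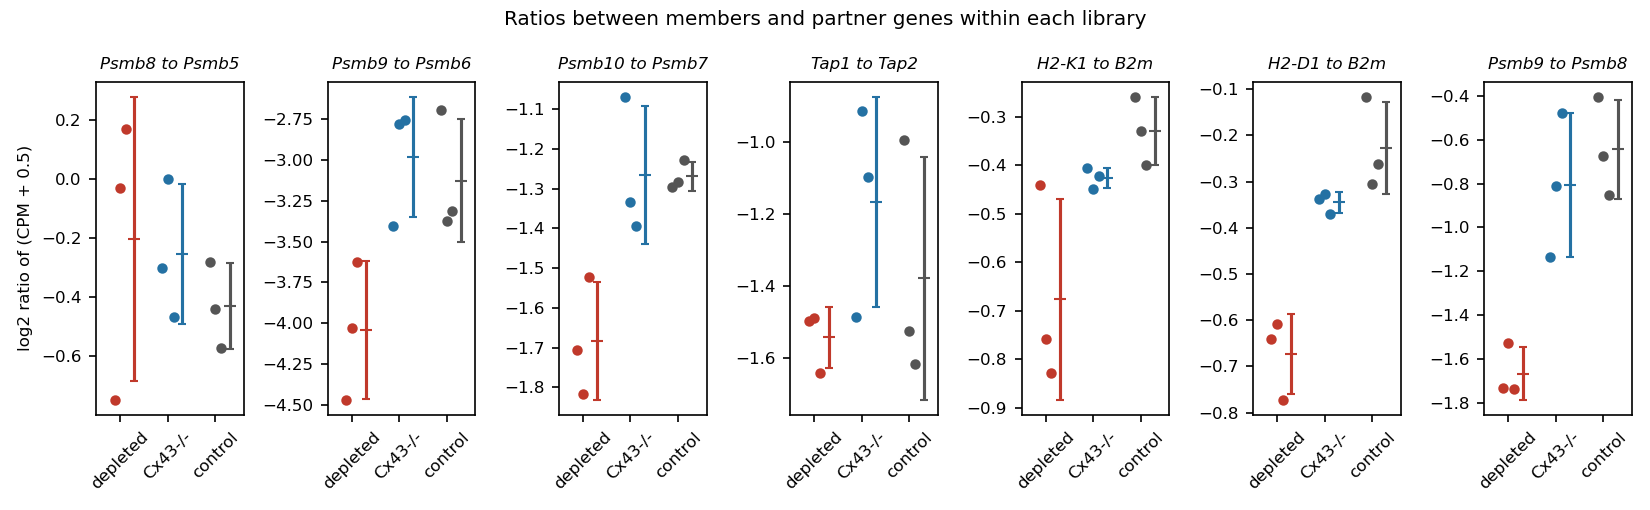
Log2 ratios of CPM + 0.5 between a member and a partner gene within each library (vertical axes, each with its own range) in macrophage-depleted, Cx3cr1 Cx43-/- and control nodes; points are libraries, and the bar is the mean with its SD (n = 3). Psmb9 to Psmb6, Psmb10 to Psmb7, H2-D1 to B2m and Psmb9 to Psmb8 had all 3 depleted libraries below all the others.

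The wider class I pathway was read against the same background of 3.23% higher and 33% lower calls between depleted and control nodes. On the common total that background was 8.79% higher and 19.6% lower, and after median-of-ratios scaling 13% each. The list of 13 peptide loading and trimming genes had 3 lower and 0 higher, with a median of -0.22: Npepps, a cytosolic aminopeptidase (-0.79, limma adjusted p = 0.00725), Tapbpl, a second peptide editor (-0.86, 0.0263), and Nrd1, an endopeptidase (-0.55, 0.0485). With the common total Npepps was the single lower call of that list, and Lnpep, Pdia3 and Sec61a1 were higher; after median-of-ratios scaling the same 3 were higher and none was lower. None of the 3 constitutive subunits passed as deposited, with Psmb7 at 0.17, Psmb6 at 0.16 and Psmb5 at 0.04, but Psmb6 and Psmb7 were called higher on the common total and all 3 after median-of-ratios scaling. None of 7 proteasome activator and assembly genes passed as deposited, where Psme1, a subunit of the interferon-inducible activator, changed by -0.48 (adjusted p = 0.0782) and its partner Psme2 by 0.32 (0.342). Psme2 was called higher on the common total (0.64, adjusted p = 0.0161) and after median-of-ratios scaling (0.79, 0.00570), where Psme3 and Psmg2 were higher too. Of 12 tested nonclassical and class I-like genes, 4 fell and 0 rose, with a median of -0.48. Fcgrt, the neonatal Fc receptor that also pairs with B2m, had 57.2, 59.8 and 37.8 CPM in depleted libraries, against 96.6, 89.0 and 89.2 CPM in control libraries (log2 change -0.85, limma adjusted p = 0.00326). Hfe, a B2m-bound regulator of iron uptake, changed by -0.80 (0.00549), Mr1, which presents microbial metabolites to T cells, by -0.97 (0.00827), and H2-T24 by -1.20 (0.0365). After rescaling to the common total Fcgrt (-0.52, adjusted p = 0.00383) and Hfe (-0.48, 0.0384) stayed below control, and Mr1 (0.0693) and H2-T24 (0.160) no longer passed. After median-of-ratios scaling Fcgrt was the single lower call (-0.36, 0.0386), Hfe no longer passed (-0.33, 0.147), and H2-T23 was called higher.

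The interferon receptor and signalling genes were called lower about as often as all tested genes in depleted nodes. Of 14 receptor and signalling genes 5 fell and 0 rose, beside 33% and 3.23% of all tested genes. Their median was -0.54, beside -0.49 over all tested genes. Ifngr2, the signalling chain of the interferon-gamma receptor, had 39.4, 41.2 and 29.9 CPM in depleted libraries, against 85.5, 86.8 and 83.5 CPM in control libraries. The groups stood far apart, at a log2 change of -1.21 (limma adjusted p = 8.89e-05) that remained on the common total (-0.88, 0.000101) and after median-of-ratios scaling (-0.73, 0.000814). Tyk2, a kinase of the type I interferon receptor, changed by -1.26 (0.000924), Stat2 by -0.67 (0.0270), and Socs1 also fell. Tyk2 remained lower on the common total (-0.95, 0.0102) and after median-of-ratios scaling (-0.80, 0.0224), while the Stat2 call ended on both (adjusted p = 0.154 and 0.432), as did that of Socs1. Ifngr1, Irf9 and Ptpn2 were called higher on both of those scales. A list of 5 ligand genes held the interferons Ifng, Ifnb1 and Ifna4, and Il27 and Tnf, which are not interferons. None of the 5 passed the filter. Ifng was listed at 0 in all depleted and all Cx3cr1 Cx43-/- libraries and at 0.02 CPM or less in control libraries. The highest value of Tnf was 1.75 CPM, in a depleted library.

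Among 29 tested interferon-inducible genes 3 rose and 3 fell in depleted against control nodes, beside 3.23% and 33% of all tested genes. Their median was -0.29, beside -0.49 over all tested genes. The risers were Isg15, Zbp1, a sensor of unusual nucleic acids, and Cxcl10, a chemokine for T cells. Zbp1 had 4.90, 3.89 and 3.28 CPM in depleted libraries, against 2, 0.26 and 1.08 CPM in control libraries (log2 change 1.63, limma adjusted p = 0.00369). Cx3cr1 Cx43-/- libraries also had more Zbp1 than every control library, at 3.24, 4.21 and 2.14 CPM. That change of 1.32 did not pass after adjustment. Between depleted and Cx3cr1 Cx43-/- nodes Zbp1 changed by 0.32 (limma adjusted p = 0.535). Cxcl10 had 1.17, 2.74 and 3.57 CPM in depleted libraries, against 0.37, 0.17 and 0.59 CPM in control libraries (1.71, limma adjusted p = 0.00912). The genes that fell were the guanylate-binding proteins Gbp4, Gbp6 and Gbp7, which attack intracellular pathogens. Gbp7 had 3.11, 3.34 and 5.07 CPM in depleted libraries, against 11.2, 7.92 and 9.02 CPM in control libraries (-1.20, limma adjusted p = 0.00212). Gbp4 had 3.55, 3.70 and 2.26 CPM in depleted libraries, against 9.63, 6.15 and 6.75 CPM in control libraries (-1.13, limma adjusted p = 0.00609). On the common total 6 of the 29 were higher and 3 lower, beside 8.79% and 19.6% of all tested genes. After median-of-ratios scaling 8 were higher and 1, Gbp4, lower (Gbp7 -0.75, adjusted p = 0.0557), beside 13% each. The balance of the list thus depends on the scale.

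Factors that bind class I promoters gave 1 rise and 1 fall among 9, beside 3.23% and 33% of all tested genes. Their median was -0.52, beside -0.49 over all tested genes. Rfx5, part of the complex that NLRC5 joins on the promoter, had 1, 3.51 and 0.69 CPM in depleted libraries, against 5.22, 4.03 and 3.84 CPM in control libraries (log2 change -1.32, limma adjusted p = 0.00979). The Rfx5 call held on the common total (-1.08, 0.0447) and ended after median-of-ratios scaling (-0.95, 0.0775). Its partner Rfxank went the opposite way (0.72, 0.0496). As deposited, depleted library 7 alone stood above the controls by far, at 55.9 CPM against 22.3 CPM in the highest control. Rfxank was also called higher on the common total (1.05, limma adjusted p = 0.00400) and after median-of-ratios scaling (1.20, 0.00157). None of 5 NF-kB subunits passed as deposited, with a median of -0.09 (Relb 0.79, adjusted p = 0.0520; Nfkb1 -0.55, 0.0571), and Relb was called higher on both other scales.

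MHC class II genes display peptides from outside the cell and are made mainly by professional antigen-presenting cells. As deposited, all 7 tested class II genes were called lower in depleted than in control nodes, beside 33% of all tested genes. Their median log2 change was -2.05. The depleted and control libraries overlapped for H2-DMa and H2-DMb1, and H2-Oa did not pass the filter. Cd74, the invariant chain of class II, had 19.6, 13.0 and 23.8 CPM in depleted libraries, against 159, 76.0 and 118 CPM in control libraries (-2.60, limma adjusted p = 1.30e-07). H2-Aa had 8.87, 4.22 and 6.87 CPM in depleted libraries, against 63.2, 27.7 and 42.8 CPM in control libraries (-2.63, limma adjusted p = 6.29e-07). On the common total and after median-of-ratios scaling 5 of the 7 were lower, beside 19.6% and 13% of all tested genes. H2-DMa and H2-DMb1 were not called on either scale. The difference between the class I and class II lists is a description and was not tested.

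**Figure D4:**
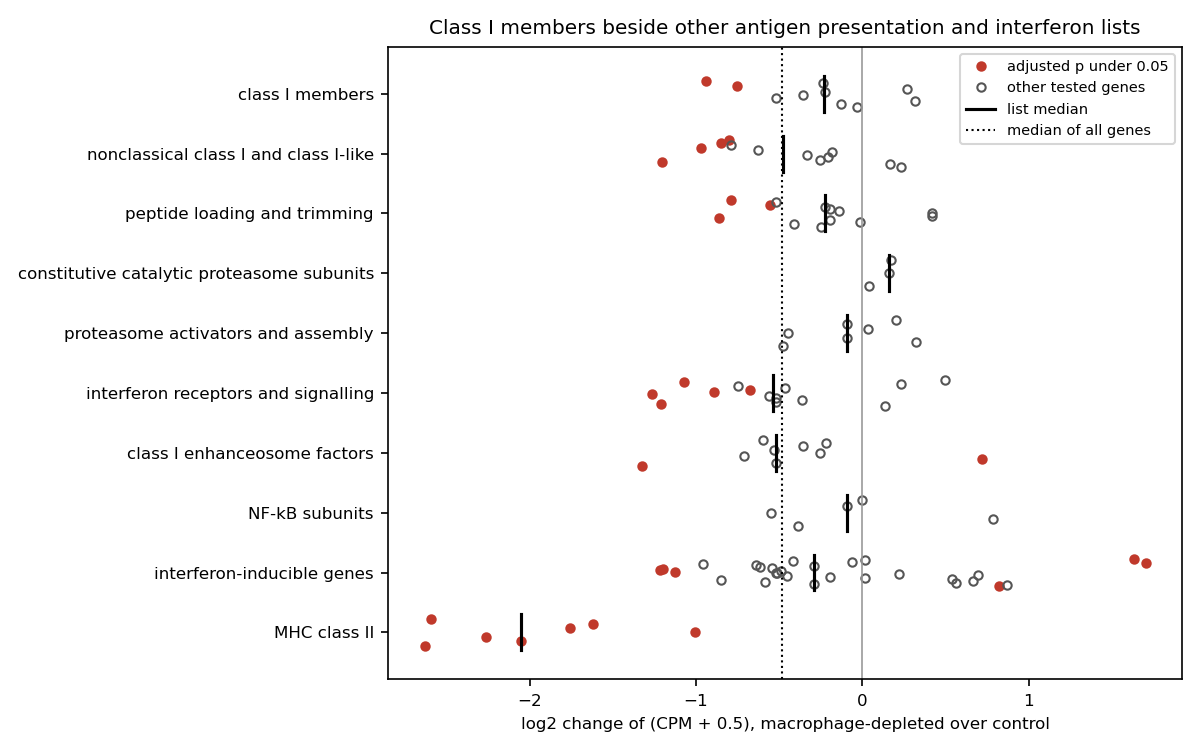
Log2 change of CPM + 0.5 in macrophage-depleted over control nodes (horizontal axis, as deposited) for each tested gene of 10 lists; filled points passed an adjusted p of 0.05, short black lines are list medians, and the dotted line is the median of all tested genes, -0.49. The class I members scatter around a median of -0.23, while the class II genes have a median of -2.05.

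Between depleted and Cx3cr1 Cx43-/- nodes, 40.7% of all tested genes were called lower and 2.69% higher as deposited. The lower genes were 16 of 29 interferon-inducible, 9 of 14 receptor and signalling, 6 of 12 nonclassical and 6 of 7 class II genes. The other lists had 3 of 13 peptide loading and trimming genes, 2 of 9 promoter factors and 1 of 5 NF-kB subunits lower. They also had 1 of 7 activator and assembly genes and 0 of 3 constitutive subunits lower. Cxcl10 and Rfxank were higher. On the common total 20.9% of all tested genes were lower and 8.47% higher. There 3 interferon-inducible genes were lower and 2 higher, and 3 receptor and signalling genes lower and 2 higher. Nonclassical and class II genes had 4 lower each and 0 higher. Peptide loading and trimming genes had 1 lower and 3 higher, and promoter factors 1 lower and 1 higher. Constitutive subunits had 2 higher, activator and assembly genes 1 and NF-kB subunits 1, with none lower. After median-of-ratios scaling the shares were 12.9% lower and 13.1% higher. On that scale 3 interferon-inducible genes were lower and 2 higher, and 3 receptor and signalling genes lower and 3 higher. Nonclassical genes had 1 lower and class II genes 4 lower, with none higher. Peptide loading and trimming genes had 0 lower and 5 higher there, and promoter factors 1 lower and 1 higher. Constitutive subunits had 3 higher, activator and assembly genes 3 and NF-kB subunits 1, with none lower. The comparisons of depleted nodes share the depleted libraries, so the lists are not independent of those above. Between Cx3cr1 Cx43-/- and control nodes none of the genes in any of these lists passed the limma test.

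Among themselves the members fell into those that moved together over the 9 libraries and those that did not, and the values given here are descriptions that share library composition. H2-K1 followed H2-D1 (Pearson r of log2 values 0.97, n = 9 libraries) and B2m (0.92). Tap1 followed Tap2 (0.90) and, less closely, H2-D1 (0.825), Tapbp (0.79), Psmb9 (0.77) and H2-K1 (0.74). Psmb8 followed none of them, at -0.15 with Psmb9 and -0.36 with Nlrc5. Depleted library 9 was the lowest of all 9 libraries for 7 members, namely H2-K1, H2-D1, B2m, Tap1, Tap2, Tapbp and Psmb10, and it is also the library whose listed genes took the smallest part of the denominator. The span across libraries was smallest for Psmb8, whose highest value was 1.53 times its lowest, and widest for Nlrc5, at 6.31 times. The genes whose profile over the 9 libraries was most like the members' mean standardised log2 value were Pcnt (r = 0.988), Zfyve16 (0.977), Cpsf6 (0.976), Eif4enif1 (0.974) and Klhl7 (0.972). After rescaling to a common total they were Pcnt (0.910), BC027231 (0.889), Ms4a6b (0.875), E2f1 (0.857) and Tmed10 (0.856).

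H2-K1 and H2-D1 are near-identical in part, and the counting may have split or dropped reads between them and related class I genes. Of the distinct 50-base words in the longest coding transcript of GENCODE M21, 8.79% for H2-K1 and 14.3% for H2-D1 also occurred in another gene. The share was 2.0% for Tapbp, 0.861% for Tap1 and 0.737% for Tap2, and 0 for the other 5 members.

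Summed markers of other cell types are given beside these values, with calls on the deposited scale, where 33% of all tested genes were lower and 3.23% higher in depleted against control nodes. The summed level of 13 resident macrophage markers was 68.1 to 78.6 CPM in depleted, 400.0 to 530 CPM in Cx3cr1 Cx43-/- and 261 to 410.3 CPM in control libraries, and 10 of the 13 fell in depleted against control nodes. The 12 endothelial markers summed to 330 to 596 CPM in depleted, 773 to 869 CPM in Cx3cr1 Cx43-/- and 557 to 833 CPM in control libraries, and 5 fell in depleted against control nodes. The sum of monocyte and neutrophil markers ran the other way. It was 31.5 to 51.5 CPM in depleted, 6.31 to 13.1 CPM in Cx3cr1 Cx43-/- and 4.60 to 9.19 CPM in control libraries. Of these markers 3 of 5 tested were higher in depleted against control nodes. Much of the sum was Chi3l3, with 28.7, 26.4 and 12.4 CPM in depleted and at most 0.03 CPM in control libraries. Only Csf3r had a lower mean in depleted than in control nodes, 0.83 against 0.94 CPM. Retnlg had 0.22 CPM or less in depleted libraries. The 13 T and NK cell markers summed to no more than 4.70 CPM in depleted, 7.66 CPM in Cx3cr1 Cx43-/- and 3.70 CPM in control libraries, none passed the filter, and Cd8a, Nkg7, Klrb1c, Ncr1 and Cd2 were at 0 in every depleted library. B cell markers summed to at most 1.35 CPM in depleted, 3.98 CPM in Cx3cr1 Cx43-/- and 4.02 CPM in control libraries. The 7 cardiomyocyte markers summed to 11643 to 20647 CPM in depleted, 26538 to 27673 CPM in Cx3cr1 Cx43-/- and 24233 to 28254 CPM in control libraries, and 3 fell in depleted against control nodes. The 7 fibroblast markers summed to 2450.4 to 2468 CPM in depleted, 3267 to 3390 CPM in Cx3cr1 Cx43-/- and 2539 to 2924 CPM in control libraries, and none was called. Dendritic cell markers summed to 7.92 to 10.8 CPM in depleted, 9.79 to 11.97 CPM in Cx3cr1 Cx43-/- and 12.1 to 18.4 CPM in control libraries, with 0 of 3 tested markers called. The 5 adipocyte markers summed to 25.3, 229 and 38.3 CPM in depleted libraries 7, 8 and 9. They summed to 7.92 to 66.9 CPM in Cx3cr1 Cx43-/- and 22.3 to 57.5 CPM in control libraries, with 0 of 4 tested markers called. The part of these cell types in the class I values was not tested.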

How the data were processed

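The authors deposited 1 table of CPM (read counts scaled to library depth), rounded to 2 decimals, for 9 libraries; per the submitters' processing notes reads were handled with STAR 2.3.0, HTSeq 0.6.0 and edgeR on build mm9, and per the labels' protocols the kit was directional. Whole reads could not be recovered because of the rounding, so no count test was run. Genes that reached 1 CPM in 3 libraries or more were fitted as log2(CPM + 0.5), a scale that understates changes of low genes, in 1 limma 3.58.1 model (R 4.3.3) of all 9 libraries with trended empirical Bayes. Tests were two-sided, Benjamini-Hochberg adjusted over all 12925 genes, with calls at an adjusted p under 0.05. The script was tested on simulated data. No 2 libraries held identical values. Members and lists were chosen with earlier results of these data known. Named genes were the 10 members, up to 4 tested genes a list by smallest unadjusted p between depleted and control nodes, other called genes of a list chosen after their values were seen, and the 5 genes most alike. The result of 1 gene that this rule names is not reported here. Alternatives were pseudocounts, filters, 3 other scalings, fits of 2 groups, quality weights, robust and untrended fits, and each library left out. The estimation of the quality weights did not reach its convergence tolerance, so results with them are uncertain. Sequences are RefSeq windows on GRCm38.p6, and no mm9 coordinates were used.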

Additional observations from a re-analysis of the deposited data

How the results depend on the processing

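No paired analysis was possible because library numbers 1 to 9 do not repeat between groups. The deposited CPM denominators hold reads outside the listed genes, in a share that was largest in depleted libraries, and each rescaling turned the signs of 3 to 6 of the 10 members between depleted and the other nodes; the cause of that share was not tested. Of the members' log2 changes under alternatives other than leaving out a library, 77 of the depleted against control, 103 of the Cx3cr1 Cx43-/- against control and 83 of the depleted against Cx3cr1 Cx43-/- values kept their direction and their side of the threshold, and 15, 6 and 13 turned sign.

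Between depleted and control nodes, 2 members were lower in the model of all libraries. That count was 0 without a filter, 1 when a mean of 5 CPM was required, where Nlrc5 was not tested, 0 in a fit of the 2 groups only and 1 with quality weights. It was 0 on the common total, after median-of-ratios scaling and after quantile normalization, where 2 members each were higher against 0 as deposited. Leaving out a library gave 0 to 2 lower and 0 to 1 higher members and 2664 to 6274 called genes of 4678, the fewest without control library 1. Signs turned on the common total for H2-K1 (0.30), H2-D1 (0.20), Tapbp (0.11) and Psmb10 (0.0919). After median-of-ratios scaling they turned for H2-K1 (0.46), H2-D1 (0.36), Tap2 (0.12), Tapbp (0.26) and Psmb10 (0.24). After quantile normalization they turned for H2-K1 (0.24), H2-D1 (0.16), Tap2 (0.0584), Tapbp (0.11) and Psmb10 (0.15), and with quality weights for Tapbp (0.00599). Leaving out a library moved H2-K1 between -0.41 and 0.36, H2-D1 between -0.41 and 0.24 and the ratio of Tap1 to Tap2 between -0.28 and 0.0286.

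Between Cx3cr1 Cx43-/- and control nodes, 1 gene was called in all. The count was 0 with a pseudocount of 0.1, 2 with a pseudocount of 2, 0 without a filter, 4 with quality weights, 0 without a trend and 0 to 2 with a library left out; no member was called in any of these. Tapbp turned to -0.0431 on the common total, -0.0688 after median-of-ratios scaling, -0.0642 after quantile normalization and -0.0457 with quality weights. Psmb9 turned to -0.0197 after median-of-ratios scaling and -0.0267 after quantile normalization. Leaving out a library moved Tapbp between -0.0459 and 0.0623, Psmb9 between -0.0341 and 0.20, Psmb10 between -0.22 and 0.0385 and the ratio of Psmb10 to Psmb7 between -0.0945 and 0.0687.

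Between depleted and Cx3cr1 Cx43-/- nodes, 3 members were lower. The count was 1 on the common total, 0 after median-of-ratios scaling and 0 after quantile normalization, where in each of the last 2 scalings 1 member was higher. Called genes numbered 3362 after median-of-ratios scaling and 3356 after quantile normalization, against 5604 as deposited. Leaving out a library gave 1 to 6 lower members and 3302 to 7049 called genes, the fewest without Cx3cr1 Cx43-/- library 5. Signs turned on the common total for B2m (0.23), Tapbp (0.15) and Psmb10 (0.19). After median-of-ratios scaling they turned for H2-K1 (0.16), H2-D1 (0.0802), B2m (0.41), Tap2 (0.00764), Tapbp (0.33) and Psmb10 (0.37). After quantile normalization they turned for B2m (0.14), Tapbp (0.17) and Psmb10 (0.26), and with quality weights for Tapbp (0.0517). Leaving out a library moved B2m between -0.42 and 0.16, Psmb8 between -0.0398 and 0.17 and the ratio of Psmb8 to Psmb5 between -0.13 and 0.32. The runs that left out a library on the 2 rescaled tables, for B2m and Psmb8, were chosen after seeing the data.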
